A study of Mus musculus with 4 samples.

Results

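The collagen genes of mouse bone were followed across single cells of 4 libraries. They were taken as every row of the count matrices whose symbol has the form Col, number, a, number, which gave 44 of the 31053 genes listed. Textbook families divide them into 11 fibrillar, 9 fibril-associated, 6 basement membrane network, 3 short-chain network, 6 beaded filament, 1 anchoring fibril, 2 multiplexin and 4 transmembrane collagens, with 2 others. The study compared wild-type C57BL/6J mice suspended by the tail for 28 days (HLU, hindlimb unloading, 2 libraries), which lifts the weight off the hind legs, with mice housed alike and not suspended (Ctrl, 2 libraries). Tibiae and femurs were flushed to remove the marrow, digested into single cells and sequenced from the 3′ end of the transcripts. No gene was altered in either group, the sex behind each library was not given, and it was not said whether a library came from 1 mouse or several. The age of the mice is unsure, since the methods name 8 weeks and the series text names postnatal day 28.

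Collagens are proteins of 3 chains wound into a triple helix, and glycine recurs at a fixed step of the helix as Gly-X-Y triplets, the only residue small enough for its core. Fibrillar collagens form the cables of tissues, types I, III and V in bone, tendon and skin and types II and XI in cartilage. Type IX decorates the cartilage fibril, type X marks hypertrophic cartilage next to forming bone, type VI forms fine filaments around cells, and type IV forms the mesh under endothelium and around smooth muscle.

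The glycine repeat can be read in the genes, and 6 exons are shown from fibrillar and fibril-associated chains that different cells made. In the GENCODE annotation of GRCm38 (mm10), 469 of the 2005 coding exons of the 44 genes (23.4%) were exactly 54 bases long, against 0.674% of the 199540 coding exons of all genes, and 54 bases hold 6 glycine triplets. Each line gives the coding strand from 5′ to 3′, with the glycine codon that opens each triplet in capitals.

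Col1a1, coding exon 8, chr11:94939904-94939957, plus strand: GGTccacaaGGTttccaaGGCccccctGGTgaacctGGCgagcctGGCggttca

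Col1a2, coding exon 8, chr6:4515481-4515534, plus strand: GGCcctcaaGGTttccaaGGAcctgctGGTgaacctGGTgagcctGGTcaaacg

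Col3a1, coding exon 6, chr1:45325360-45325413, plus strand: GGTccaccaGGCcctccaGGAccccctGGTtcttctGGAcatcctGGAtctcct

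Col2a1, coding exon 6, chr15:97998545-97998598, minus strand: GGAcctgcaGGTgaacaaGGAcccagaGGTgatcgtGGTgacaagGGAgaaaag

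Col11a1, coding exon 15, chr3:114108281-114108334, plus strand: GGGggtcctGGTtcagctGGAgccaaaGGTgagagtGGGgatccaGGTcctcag

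Col9a1, coding exon 11, chr1:24202014-24202067, plus strand: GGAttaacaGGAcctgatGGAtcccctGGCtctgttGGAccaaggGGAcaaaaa

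The exons of Col1a1 and Col1a2, whose chains join in 1 protein, were the same at 42 of 54 bases. An uninterrupted run of more than 300 glycine triplets was found in 9 genes, all of them fibrillar. The short-chain genes Col10a1, Col8a1 and Col8a2 lacked this plan, with 2 coding exons each and no exon of 54 bases. Col4a1 (chr8:11198423-11312826, minus strand) and Col4a2 (chr8:11312805-11449287, plus strand) lay head to head, with annotated starts that overlapped by 22 bases.

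After barcodes outside 1000 to 40000 UMIs (counted transcript molecules) or above 10% mitochondrial UMIs were set aside, 7340 and 7635 cells were left in Ctrl and 7757 and 9485 in HLU, with 45347595 to 87604282 UMIs a library and 13 to 21 barcodes shared by a pair of libraries. HLU replicate 2 stood apart, since 2513 of the 2532 cells of 1 neutrophil cluster and 1923 of the 1939 cells of another came from it. Cells were clustered with all collagens left out, so that collagen levels did not shape the groups. Clusters of chondrocyte-like, connective tissue-like, fibroblast-like and stromal cells together are called osteochondral cells. Levels are counts per 1000000 UMIs of the same cells (CPM), which count molecules whatever the length of a gene. Levels of different collagens can thus be set side by side, but they carry any difference in how well each transcript is captured. All p-values measure the spread between these libraries, which may be technical.

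In Ctrl bone the osteochondral cell types differed in the collagens they made most, although some types shared leading collagens. Of the 44 genes, 18 had a mean of at least 50 CPM in Ctrl osteochondral cells, 7 lay between 10 and 50 CPM, 6 between 1 and 10 CPM and 13 under 1 CPM. Among the 18, type II, type IX, type XI, Col16a1 and Col27a1 had their highest Ctrl mean in Matn3 chondrocyte-like cells, the 3 type VI chains in Epyc chondrocyte-like cells and Col10a1 in Acan chondrocyte-like cells. Col1a1, Col1a2 and Col12a1 were highest in osteoblast-like cells, Col3a1 and Col5a2 in fibroblast-like cells, and Col4a1 in endothelial-like cells. For Col5a2 the libraries of fibroblast-like and osteoblast-like cells overlapped. For Col4a1 those of endothelial-like cells (6 and 8 cells) and pericyte or smooth muscle-like cells overlapped. For Col1a1 and Col1a2 the libraries of osteoblast-like cells overlapped those of a stromal cluster, described below, that holds part of these cells. That stromal cluster, once its osteoblast-like cells were left out, was not ranked. Its Col4a1 mean was 998 CPM, above the 685 CPM of endothelial-like cells. None of the 18 was highest in connective tissue-like cells. The clusters that define these types were not used as a test of the differences between them.

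**Figure D1:**
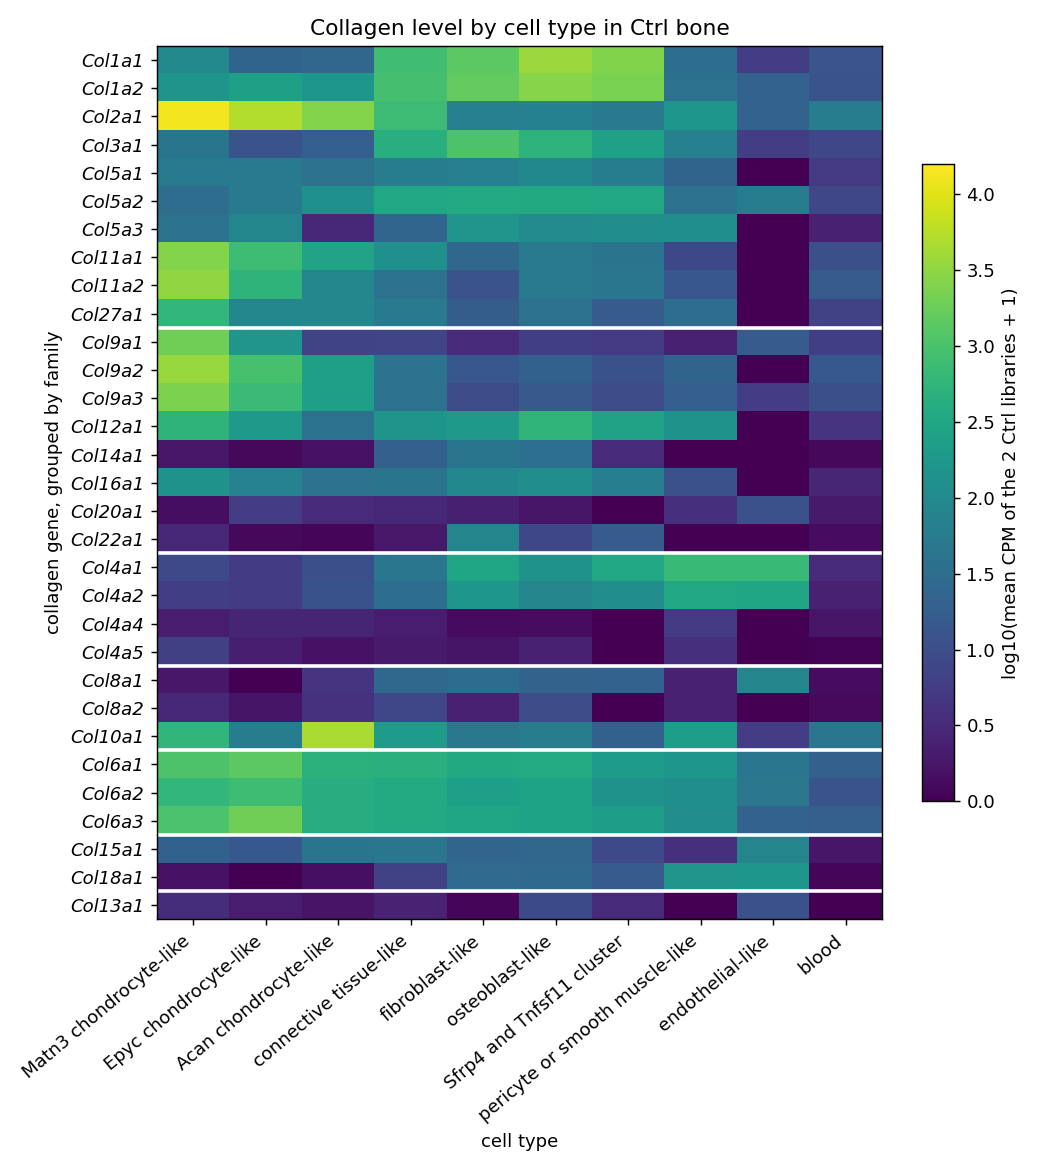
Mean level of 31 collagens (rows, grouped by family between white lines) in 10 groups of Ctrl cells (columns), as log10 of the mean CPM of the 2 Ctrl libraries plus 1. Col2a1 is brightest in the Matn3 column, Col10a1 in the Acan column, and Col1a1 and Col1a2 in the osteoblast-like column, while the blood column is dark.

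Matn3 chondrocyte-like cells (190 and 275 in Ctrl), named after the cartilage matrix protein matrilin 3, gave the largest share of their UMIs to collagen, 3.41% and 3.03% in Ctrl. Col2a1, the main chain of the cartilage fibril, stood at 15393 and 11414 CPM there. The type IX chain Col9a2 reached 3412 and 3781 CPM, and the type XI chains Col11a1 and Col11a2 reached 3145 and 2172 CPM and 2793 and 3637 CPM. The 5 leading collagens, which include Col9a3 at 2648 and 2117 CPM, gave 78.5% of the collagen level. Col9a1, the chain that completes type IX, was found in these cells above all, with 92.7% and 93.8% of its Ctrl osteochondral UMIs.

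Acan chondrocyte-like cells (1303 and 951 in Ctrl), named after aggrecan, made Col10a1 at 3786 and 5482 CPM, ahead of Col2a1 at 2065 and 3127 CPM. The 3 type VI chains came next, with Col6a1 at 440 and 548 CPM, Col6a3 at 343 and 496 CPM and Col6a2 at 353 and 463 CPM. Acan cells held 91.8% and 92.2% of all Col10a1 UMIs of Ctrl osteochondral cells. Col10a1 was uneven within the type, since 476 of the 1303 cells of Ctrl replicate 1 held 98.0% of its UMIs. One of the clusters in this type had more connective tissue markers than chondrocyte markers among its 10 leading genes. HLU replicate 1 held 0 Acan cells, so the type was described and not tested between groups.

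Epyc chondrocyte-like cells (129 and 139 in Ctrl), named after epiphycan and led by the matrix protease Mmp13, had Col2a1 at 4856 and 5679 CPM. Type VI was prominent in them, with Col6a3 at 1524 and 2314 CPM and Col6a1 at 1064 and 1666 CPM. Col9a2, at 852 and 1070 CPM, and Col6a2, at 650 and 930 CPM, completed the 5 leading collagens. Beaded filament collagens made up 27.6% and 32.7% of their collagen UMIs, against 7.56% and 9.08% in the Matn3 cells and 13.7% and 12.9% in the Acan cells. Col10a1, the mark of hypertrophic cartilage, was low in them in Ctrl, at 42.8 and 77.9 CPM.

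Connective tissue-like cells (1812 and 860 in Ctrl), led by genes such as Myoc, Angptl7 and Npy, and fibroblast-like cells (302 and 250) made type I collagen, the protein of bone and tendon. Col1a2 and Col1a1 stood at 828 and 1031 CPM and at 783 and 833 CPM in connective tissue-like cells. In fibroblast-like cells Col1a2 stood at 1526 and 1545 CPM, Col1a1 at 1379 and 1353 CPM and the fine-fibril collagen Col3a1 at 795 and 1363 CPM. Col6a1 stood at 412 and 528 CPM in connective tissue-like cells and 280 and 424 CPM in fibroblast-like cells, Col3a1 at 310 and 537 CPM in the former and Col5a2, a type V chain, at 287 and 449 CPM in the latter. Connective tissue-like cells also had 569 and 931 CPM of Col2a1, whereas fibroblast-like cells had 81.1 and 51.9 CPM. Basement membrane chains formed 7.46% and 6.54% of the collagen UMIs of fibroblast-like cells, led by Col4a1 at 305 and 291 CPM.

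Osteoblast-like cells were found by a finer clustering chosen after the data were seen, from clusters with the bone protein gene Bglap among their leading genes (143 and 141 cells in Ctrl). Col1a1 stood at 5054 and 2320 CPM and Col1a2 at 3491 and 1939 CPM in them. The fibril-associated Col12a1 followed at 616 and 487 CPM, ahead of Col3a1 and Col6a1. A further cluster with osteoblast markers but without Bglap among its leading genes (110 and 112 cells in Ctrl, 1 and 5 in HLU) was not counted among them. At the first resolution the osteoblast-like cells lay in the connective tissue-like, fibroblast-like and stromal clusters.

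One stromal cluster (41 and 42 cells in Ctrl), led by Fstl1, the Wnt antagonist Sfrp4 and Tnfsf11, the gene of the osteoclast factor RANKL, is called here by Sfrp4 and Tnfsf11, because Bglap and none of its own markers was among its 10 leading genes. Its type I level came from the osteoblast-like cells in it. Col1a1 stood at 1729 and 3384 CPM in the whole cluster and at 0 and 112 CPM once those cells were left out, which left 8 and 15 cells. Col1a2 stood at 1727 and 2810 CPM in the whole cluster, Col5a2 at 305 and 364 CPM and Col12a1 at 122 and 394 CPM. Col4a1 went the other way, from 252 and 376 CPM to 1103 and 894 CPM. Endothelial-like cells stood at 805 and 564 CPM (6 and 8 cells). Pericyte or smooth muscle-like cells stood at 487 and 854 CPM (60 and 51 cells).

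Chains of 1 protein did not stand in 1 fixed proportion. The UMIs of Col6a1 divided by those of Col6a2 gave 1.35 and 1.46 in Ctrl osteochondral cells, and the type I ratio, Col1a1 over Col1a2, gave 0.819 and 0.791. In Acan cells that type I ratio was 0.149 and 0.143, so Col1a2 was counted there with little Col1a1. Col9a1 over Col9a2 was 0.588 and 0.508 in Matn3 cells and 0.0242 and 0.0294 in Acan cells, where Col9a2 stood at 157 and 305 CPM. These ratios are counts of 3′ ends and carry any difference in how well each transcript is captured.

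HLU libraries held few of the cells that make collagen. Osteochondral cells numbered 3777 and 2517 in Ctrl (51.5% and 33.0% of cells) and 75 and 150 in HLU (0.967% and 1.58%). Seurat anchor integration gave 150 and 207 HLU cells and 3773 and 2500 Ctrl cells. Earlier work on these data found that integration placed neutrophil-like cells of HLU replicate 1 with osteoblast lineage cells. Whether it did so here was not tested. A cluster led by Cemip, Cxcl1 and Lif, which no marker list named, was not counted among the osteochondral cells. It held 15 and 39 HLU cells and 163 and 137 Ctrl cells. Over all cells, collagens took 0.581% and 0.679% of UMIs in Ctrl and 0.0411% and 0.0167% in HLU, so every HLU library lay below both Ctrl libraries and the Ctrl mean was 21.8 times the HLU mean. By exact permutation of the libraries p was 0.333 (two-sided), and no arrangement of 2 and 2 libraries can go lower. In whole libraries fewer osteochondral cells and less collagen RNA in each cell cannot be told apart.

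Gene by gene, edgeR's quasi-likelihood test with Benjamini-Hochberg adjustment called 31 of the 37 collagens tested in whole libraries lower in HLU and none higher, while 17.1% of all 15385 genes tested were called lower and 6.06% higher. DESeq2 called 32 lower, beside 19.4% of all genes. The median log2 fold change, HLU over Ctrl, was -4.43 for the 37 collagens and 0.04 for all genes. Col10a1 fell by 6.17 on the log2 scale (adjusted p = 0.00326, edgeR), leaving 1.32% of its Ctrl level, and Col6a1 fell by 4.56 (adjusted p = 0.00326). Col4a1 fell by 2.26 (adjusted p = 0.00581), leaving 19.96%, and Col1a1 was not called (log2 fold change -2.82, adjusted p = 0.0541), with 13.9% of its Ctrl level left. Without Ctrl replicate 1 there were 18 calls of 38 (5.31% of all genes, either direction). In each fit without 1 library a group holds a single library, which is assumed to vary like the libraries of the other group.

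**Figure D2:**
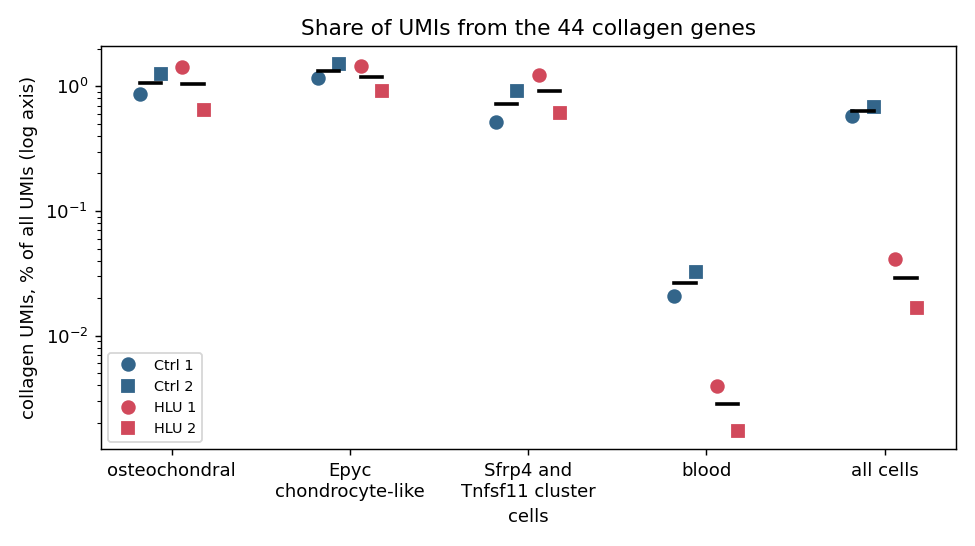
Percent of all UMIs that came from the 44 collagen genes (log axis) in 5 groups of cells, 1 point a library, with bars at the mean of each group of 2 libraries. Over all cells and in blood cells both HLU points lie below both Ctrl points, while within osteochondral cells, Epyc chondrocyte-like cells and the Sfrp4 and Tnfsf11 cluster the groups overlap.

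Within osteochondral cells no such gap was seen. Collagens took 0.862% and 1.26% of UMIs in Ctrl (mean 1.06% ± 0.280, SD, n = 2) and 1.44% and 0.643% in HLU (1.04% ± 0.565, SD, n = 2), and the groups overlapped. The difference of -0.0168 percentage points gave p = 1 in the exact two-sided permutation test, and it became 0.383 without HLU replicate 2 and -0.417 without HLU replicate 1. With Seurat integration it was -0.209. A cell of this class held on average 81.4 and 145 collagen UMIs in Ctrl and 186 and 69.8 in HLU. Blood transcripts in these cells, read as S100a8 plus S100a9, were 0.120% and 0.183% of UMIs in Ctrl and 0.315% and 0.218% in HLU, and their part in the levels was not tested.

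The make-up of the osteochondral cells differed between libraries. Acan cells made up 34.5% and 37.8% of this class in Ctrl and connective tissue-like cells 48.0% and 34.2%, the latter beside 8% and 23.3% in HLU. In HLU replicate 1 there were 0 Acan cells of 75, and in HLU replicate 2 Acan cells made up 26.7%. The Sfrp4 and Tnfsf11 cluster formed 1.09% and 1.67% of the class in Ctrl and 48.0% and 20.7% in HLU, and Epyc cells formed 3.42% and 5.52% in Ctrl and 28.0% and 20% in HLU. Of the 40 Acan cells of HLU replicate 2, 31 lay in a cluster that held 1 cell of each Ctrl library. Levels over all osteochondral cells therefore carry this make-up along with the level in each type.

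**Figure D3:**
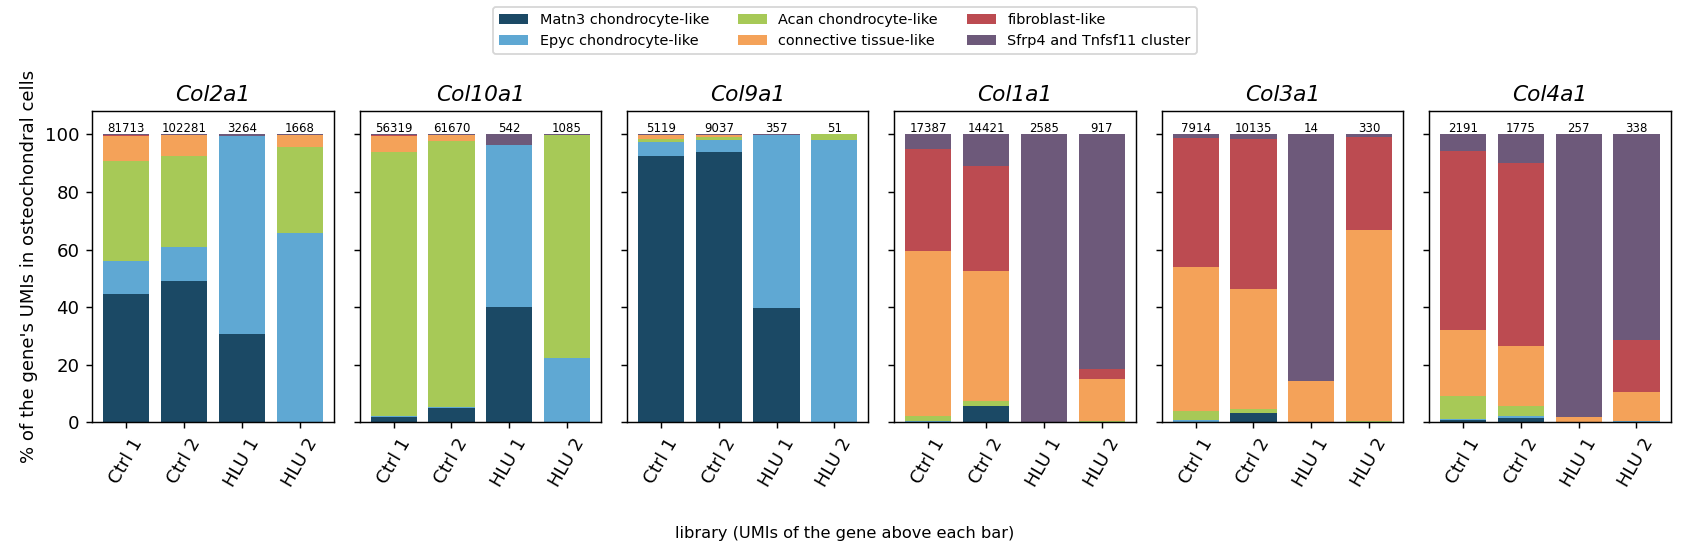
Percent of the UMIs of 6 collagens that lay in each osteochondral type (stacked colours, adding to 100%), 1 bar a library, with the UMIs of the gene in that library above each bar. In Ctrl, Col9a1 is almost all in Matn3 cells, Col10a1 in Acan cells and Col1a1 in connective tissue-like and fibroblast-like cells, whereas in HLU the Sfrp4 and Tnfsf11 cluster holds most Col1a1 and Col4a1.

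In osteochondral cells edgeR called 0 of the 33 collagens tested, and 0% of the 13204 genes tested were called. At an unadjusted p under 0.05 there were 10 collagens, 6 lower and 4 higher in HLU, beside 19.5% of all genes (10.8% lower, 8.70% higher). DESeq2 called 4 of 32, Col10a1 and Col16a1 lower and Col4a1 and Col4a2 higher, beside 5.81% of all genes. Leaving out HLU replicate 1 gave 11 calls of 38 by edgeR (11.3% of all genes) and leaving out HLU replicate 2 gave 7 of 37 (3.54% of all genes). The median log2 fold change was -0.53 for the collagens and -0.02 for all genes. The scale matters here, since the median gene had a log2 ratio of 0.36 in plain CPM and -0.01 after edgeR's TMM scaling, and Col5a1, Col5a2, Col9a3, Col12a1 and Col4a4 were higher in HLU in CPM and lower after scaling.

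Col10a1 stood at 1579 and 2121 CPM in Ctrl osteochondral cells and at 561 and 666 CPM in HLU. Both HLU libraries lay below both Ctrl libraries. In HLU replicate 1, which held 0 Acan cells, most of the 542 Col10a1 UMIs lay in a few Epyc cells and a Matn3 cell. The log2 fold change was -1.95 ± 0.31 (SE, adjusted p = 0.0902 by edgeR and 3.02e-07 by DESeq2), and 33.2% of the Ctrl level was left in CPM. Col16a1, a fibril-associated chain, was at 50.4 and 67.2 CPM in Ctrl and 30.02 and 23.3 CPM in HLU, again without overlap (log2 fold change -1.52 ± 0.25, adjusted p = 0.0966 by edgeR and 0.00300 by DESeq2).

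Col4a1 stood higher in HLU, at 266 and 208 CPM beside 61.4 and 61.0 CPM in Ctrl, and so did its partner Col4a2, at 85.9 and 123 CPM beside 34.7 and 38.8 CPM. Neither gene's groups overlapped. The log2 fold changes were 1.58 ± 0.22 for Col4a1 (adjusted p = 0.0780 by edgeR and 7.24e-08 by DESeq2) and 1.16 ± 0.27 for Col4a2 (adjusted p = 0.140 and 0.0213). Where the UMIs lay differed, since fibroblast-like cells held 62.3% and 63.4% of Col4a1 in Ctrl and the Sfrp4 and Tnfsf11 cluster held 98.1% and 71.3% in HLU.

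Type I collagen of the few HLU osteochondral cells came from a handful of them. Col1a1 stood at 487 and 496 CPM in Ctrl and at 2676 and 563 CPM in HLU, so both HLU libraries were above both Ctrl libraries and HLU replicate 1 far above the rest. In that library 6 of the 75 osteochondral cells held 2576 of the 2585 Col1a1 UMIs, and 10 of the 150 of HLU replicate 2 held 889 of 917. These cells had at least 10 UMIs of the gene, as did 216 of 3777 and 183 of 2517 Ctrl cells. The log2 fold change was 1.31 ± 0.68 (SE, adjusted p = 0.344, edgeR), and it was -0.14 without HLU replicate 1. Col1a2 behaved alike, at 595 and 627 CPM in Ctrl and 2065 and 838 CPM in HLU (log2 fold change 0.86 ± 0.43, adjusted p = 0.335).

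Osteoblast-like cells were 13 and 9 in HLU and held 99.9% and 84.3% of the Col1a1 UMIs of HLU osteochondral cells, against 28.2% and 20.7% in Ctrl. Col1a1 stood at 10293 and 6947 CPM in them and Col1a2 at 7714 and 9967 CPM, both above the Ctrl values of this type. The cells lay in different clusters in the groups. A cluster led by Ptx3 and Bglap held 13 and 8 of them in HLU and 53 and 89 in Ctrl, and one led by Bglap2, Bglap and Penk held 0 and 1 in HLU and 90 and 52 in Ctrl. Their median depth was 22344 and 15596 UMIs a cell in HLU and 5295 and 8130 in Ctrl. Col3a1, at 580 and 443 CPM in Ctrl, stood at 27.9 and 117 CPM, and Col6a1, at 388 and 387 CPM in Ctrl, at 39.9 and 53.9 CPM. With 9 cells in 1 library the type was not tested.

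**Figure D4:**
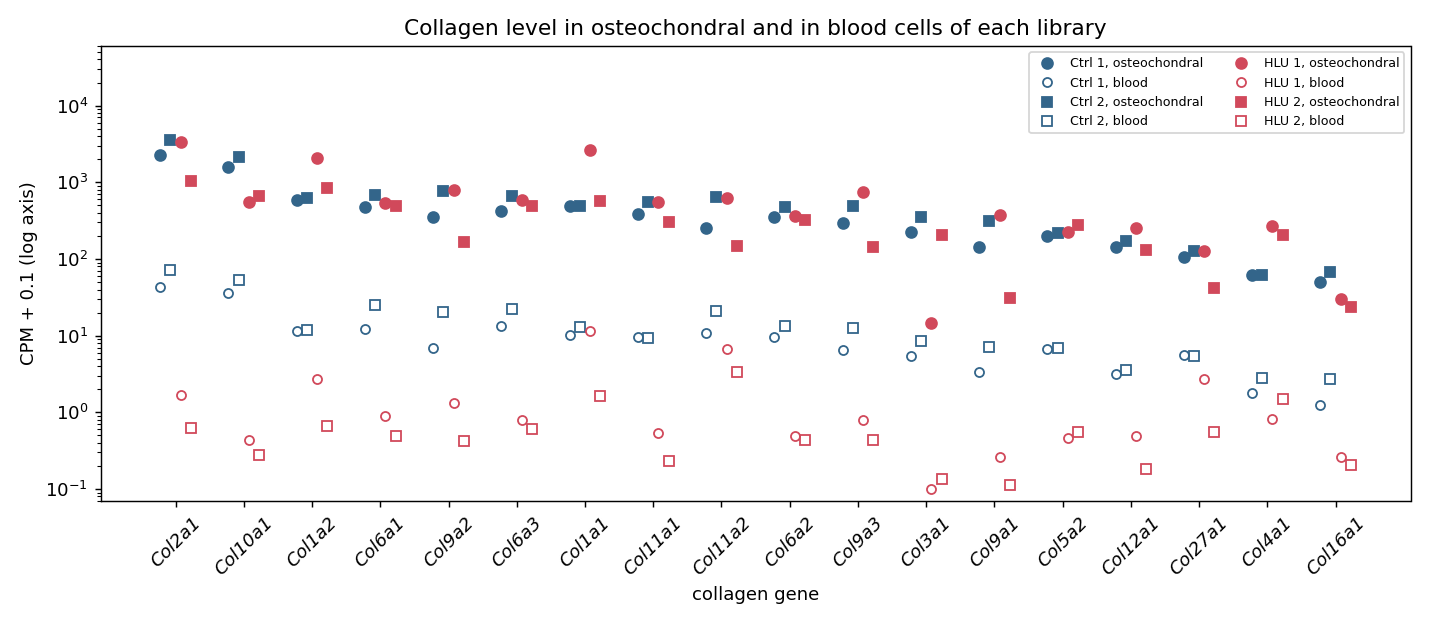
Level of the 18 collagens with at least 50 CPM in Ctrl osteochondral cells (CPM plus 0.1, log axis), with filled symbols for osteochondral cells and open symbols for blood cells of the same library. Both open HLU symbols lie below both open Ctrl symbols for each gene except Col1a1, while both filled HLU symbols lie below the filled Ctrl symbols for Col10a1, Col16a1 and Col3a1 and above them for Col1a1, Col1a2, Col4a1 and Col5a2.

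Col3a1 was at 222 and 349 CPM in Ctrl osteochondral cells and at 14.5 and 203 CPM in HLU. The low value rested on 14 UMIs in HLU replicate 1, which held 0 fibroblast-like cells. HLU replicate 2 lay just below the Ctrl libraries, but 194 of its 330 Col3a1 UMIs were in 1 cell. The log2 fold change was -1.69 ± 1.05 (SE, adjusted p = 0.415, edgeR). Col2a1 ranged from 2291 and 3517 CPM in Ctrl to 3379 and 1025 CPM in HLU, with overlap (log2 fold change -0.80 ± 0.58, adjusted p = 0.481). In HLU the Epyc cells held 69.0% and 65.7% of the Col2a1 UMIs, against 11.7% in each Ctrl library.

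The other cartilage fibril genes were, like Col2a1, lowest in HLU replicate 2. Col9a1 stood at 144 and 311 CPM in Ctrl and 370 and 31.3 CPM in HLU, and Col9a2 at 349 and 772 CPM and at 793 and 165 CPM. HLU replicate 2, which held 0 Matn3 cells, was lowest for both, and HLU replicate 1 was highest. Col9a3 stood at 297 and 489 CPM in Ctrl and 743 and 142 CPM in HLU, and Col11a2 at 252 and 643 CPM and at 624 and 148 CPM. Col11a1 stood at 389 and 546 CPM in Ctrl and 550 and 299 CPM in HLU, and Col27a1 at 106 and 125 CPM and at 125 and 41.8 CPM. In all 6 genes the groups overlapped. The type VI chains varied less between libraries, Col6a1 at 476 and 687 CPM in Ctrl and 538 and 497 CPM in HLU, Col6a3 at 422 and 671 and at 592 and 486, and Col6a2 at 353 and 470 and at 369 and 321.

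The rest of the 18, Col5a2 and Col12a1, stood at 198 and 220 CPM and at 145 and 170 CPM in Ctrl and at 222 and 281 CPM and at 253 and 131 CPM in HLU. Among the less abundant members, Col5a1 was at 46.3 and 52.4 CPM in Ctrl and 60.05 and 56.5 CPM in HLU, Col5a3 was at 26.2 and 53.4 CPM in Ctrl and 67.3 and 101.3 CPM in HLU, and Col18a1, which yields endostatin, at 4.74 and 7.15 CPM and at 11.4 and 24.0 CPM. All 3 stood higher in each HLU library in CPM, and none passed the test (adjusted p = 0.384 for Col5a3 and 0.223 for Col18a1, edgeR). Col15a1, the other multiplexin, stood at 38.0 and 32.2 CPM in Ctrl and 2.07 and 19.7 CPM in HLU (adjusted p = 0.220). Col8a1, Col8a2 and Col22a1 were lower in each HLU library, the first at 12 and 14.8 CPM in Ctrl and 6.21 and 4.91 CPM in HLU. Of the 44 genes, 22 had at least 10 UMIs in every library.

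At the low end the few HLU cells limited what could be seen. The 7 genes with 0 UMIs in both HLU libraries were Col4a3, Col6a4, Col6a5, Col6a6, Col19a1, Col24a1 and Col26a1, all with a Ctrl mean under 1 CPM, and a count of 0 allows up to 3.11 and 1.84 CPM (3 counts, counting error only). A change in these genes was not detectable at this depth. Col17a1, a transmembrane collagen of epithelia, had 10 and 4 UMIs in Ctrl and 4 and 2 in HLU. In CPM it stood higher in HLU, at 4.14 and 1.23 beside 0.280 and 0.138 in Ctrl, on these few UMIs. Its log2 fold change was 3.09 ± 0.93 (SE, unadjusted p = 0.0186, adjusted p = 0.187, edgeR). Col28a1 had 1 and 0 UMIs in Ctrl and 0 and 7 in HLU. Col7a1, Col23a1, Col25a1 and Col4a6 had 24 or fewer UMIs in every library.

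**Figure D5:**
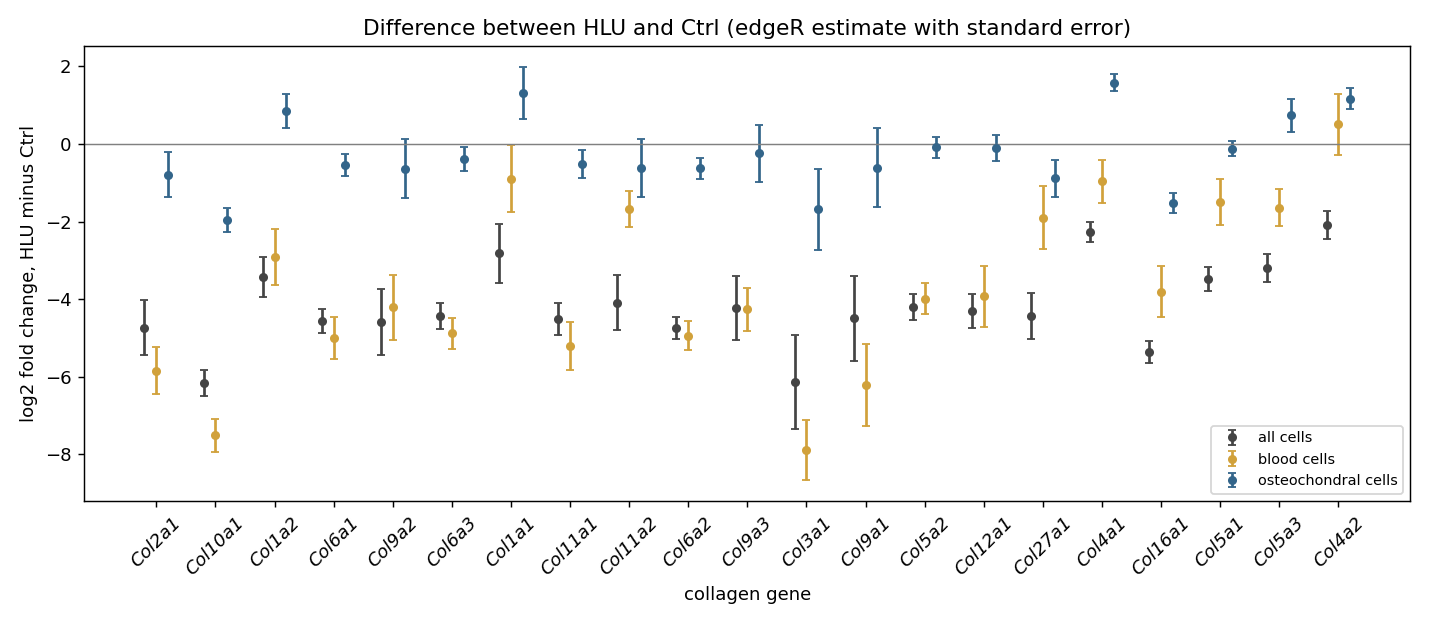
Log2 fold change, HLU over Ctrl, from edgeR with its standard error for 21 collagens in all cells, blood cells and osteochondral cells, with no change at the line at 0. All cells lie below 0 for each gene shown and blood cells for each except Col4a2, while osteochondral cells scatter on both sides, with Col10a1 lowest and Col4a1 highest.

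Epyc cells were the one chondrocyte-like type with at least 10 cells in every library (129, 139, 21 and 30). Collagens took 1.17% and 1.504% of their UMIs in Ctrl and 1.47% and 0.923% in HLU, and the groups overlapped (exact permutation test, p = 0.667). Once doublets and cells with haemoglobin were removed the shares were 1.19% and 1.56% in Ctrl and 0.931% and 0.823% in HLU. With collagens among the clustering genes they were 1.17% and 1.502% in Ctrl and 1.01% and 0.808% in HLU. Both were without overlap, but few cells made the difference. The HLU libraries held 18 and 24 and then 19 and 28 Epyc cells, beside 21 and 30 in the main analysis. Col2a1 stood at 5793 and 2716 CPM in HLU beside 4856 and 5679 CPM in Ctrl, and 1 cell of HLU replicate 1 held 1198 of its 2253 Col2a1 UMIs. EdgeR called 0 of the 19 collagens tested and 0% of the 8157 genes tested, 5 collagens had an unadjusted p under 0.05 (7.01% of all genes), and DESeq2 called 1, beside 0.221% of all genes.

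That gene was Col10a1, at 42.8 and 77.9 CPM in Ctrl and 787 and 605 CPM in HLU, so both HLU libraries were above both Ctrl libraries. The log2 fold change was 3.34 ± 0.46 (SE, adjusted p = 0.201, edgeR). Its UMIs were held by 4 of 21 cells in HLU replicate 1 (304 of 306) and 3 of 30 cells in HLU replicate 2 (243 of 244). An alternative chosen after the data were seen left out cells with at least 10 UMIs of the gene. The levels were then 29.7 and 30.2 CPM in Ctrl and 7.14 and 2.72 CPM in HLU. Since cells were left out by their count of this gene, the order of the groups here cannot be read as a difference. Col1a2 was at 299 and 180 CPM in Ctrl and 79.7 and 69.4 CPM in HLU (log2 fold change -1.81 ± 0.35, adjusted p = 0.391).

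In the Sfrp4 and Tnfsf11 cluster (41, 42, 36 and 31 cells) collagens took 0.518% and 0.914% of UMIs in Ctrl and 1.22% and 0.608% in HLU (exact permutation test, p = 0.667), with overlap. The direction depended on which cells entered the cluster. Seurat integration gave 0.611% and 0.371% in Ctrl and 0.353% and 0.170% in HLU. Leaving out osteoblast-like cells gave 0.244% and 0.371% in Ctrl and 0.305% and 0.185% in HLU. Collagens among the clustering genes gave 1.497% and 1.38% in Ctrl and 2.03% and 1.999% in HLU. That last set was largely of other cells, 104 and 112 in Ctrl and 10 and 6 in HLU, with 74 shared with the main cluster. EdgeR called 0 of 18 collagens and 0.151% of all 5975 genes, 5 collagens had an unadjusted p under 0.05 (6.13% of all genes), and DESeq2 called 2 of 17, beside 0.470% of all genes. Those were Col3a1, at 177 and 332 CPM in Ctrl and 26.1 and 7.12 CPM in HLU, and Col6a3, at 167 and 266 CPM and at 65.3 and 19.0 CPM. Their log2 fold changes were -3.95 ± 0.60 and -2.40 ± 0.56 (SE, adjusted p = 0.0885 and 0.352 by edgeR). Without the osteoblast-like cells 8 and 15 cells were left in Ctrl and 25 and 25 in HLU. In these Col3a1 stood at 0 and 420 CPM in Ctrl and 23.5 and 6.19 CPM in HLU, so its groups overlapped, while Col6a3 stood at 84.8 and 181 CPM and at 61.01 and 18.6 CPM, without overlap. Col4a1 stood at 1103 and 894 CPM in Ctrl and 1145 and 746 CPM in HLU, with overlap. Without HLU replicate 1 edgeR called 5 of 22 collagens in Epyc cells (4.33% of all genes) and 9 of 20 in this cluster (6.49%). Without HLU replicate 2 it called 2 of 22 (0.347%) and 4 of 20 (1.97%). Without Ctrl replicate 1 it called 0 of 17 (0.0342%) and 2 of 20 (0.338%), and without Ctrl replicate 2 it called 0 of 18 (0.0170%) and 2 of 18 (1.03%).

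The other types had too few HLU cells for a test. In the 12 Matn3 cells of HLU replicate 1 collagens took 2.79% of UMIs, with Col2a1 at 10784 CPM and Col9a1 at 1533 CPM, and 210 of their 217 Col10a1 UMIs were in 1 cell. The 40 Acan cells of HLU replicate 2 had Col10a1 at 2169 CPM, Col2a1 at 1285 CPM and Col5a2 at 509 CPM. The 35 connective tissue-like cells of that library had Col3a1 at 995 CPM and Col1a1 at 600 CPM. Of the 219 Col3a1 UMIs behind the former value, 194 lay in 1 cell. The 14 fibroblast-like cells of that library had Col1a1 at 163 CPM and Col4a1 at 311 CPM. Endothelial-like cells (6 and 7 in HLU) had Col4a1 at 923 and 1030 CPM, and pericyte or smooth muscle-like cells (8 and 9 in HLU) at 1565 and 680 CPM. A level found in 1 HLU library has no replicate check.

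The same question was put to the processing genes in osteochondral cells, in a list of 37 that fold, modify, secrete, trim or cross-link collagen and a list of 11 receptors. EdgeR called 0 of the 35 processing genes and 0 of the 9 receptor genes tested, with 0% of all genes called. At an unadjusted p under 0.05 there were 15 processing genes lower and 3 higher, beside 10.8% and 8.70% of all genes, and DESeq2 called 9 lower and 2 higher, beside 3.35% and 2.46% of all genes. Over both lists edgeR's count of 0 became 18 of 46 without HLU replicate 1 (11.3% of all genes) and 6 of 46 without HLU replicate 2 (3.54%). The median log2 fold change of the processing genes was -0.59, and that of the receptors was 0.17, beside -0.02 for all genes.

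Lox, the enzyme that starts cross-linking, stood at 822 and 922 CPM in Ctrl and 385 and 292 CPM in HLU (fold change on the log2 scale -1.74 ± 0.26, SE, adjusted p = 0.0901 by edgeR and 2.28e-08 by DESeq2). P4ha1 and P4ha2, which hydroxylate the prolines that hold the helix together, stood at 414 and 492 CPM and at 369 and 509 CPM in Ctrl and at 227 and 106 CPM and at 193 and 106 CPM in HLU (adjusted p = 0.128 and 0.110 by edgeR, 0.00141 and 0.000168 by DESeq2). All 3 genes were lower in each HLU library than in each Ctrl library. DESeq2 also called P4hb, P3h2, Colgalt2, Pcolce, Pcolce2 and Sparc lower, and Adamts14, a trimming protease, and Loxl1, a cross-linking enzyme, higher. Serpinh1, the collagen chaperone, stood at 676 and 561 CPM in Ctrl and 1430 and 408 CPM in HLU, so the groups overlapped, and HLU replicate 1 was highest as it was for Col1a1. Among the receptors 1 gene, Itga10, had an unadjusted p under 0.05, and DESeq2 called 0.

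Blood cells, which should lack most collagen transcripts, gave the background. Collagens took 0.0208% and 0.0322% of their UMIs in Ctrl and 0.00393% and 0.00172% in HLU, so the groups did not overlap and the Ctrl mean was 9.37 times the HLU mean (exact permutation test, p = 0.333, the smallest possible). The collagen share of osteochondral cells was 41.4 and 39.1 times that of blood cells in Ctrl and 367 and 373 times in HLU. Both Ctrl libraries, which held more osteochondral cells, had more background than both HLU libraries. Of the Ctrl libraries replicate 1 held more of those cells. Replicate 2 had more background and more collagen UMIs in its osteochondral cells, 365584 beside 307413 in replicate 1. The part of free RNA in it was not tested.

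In the Ctrl libraries the collagens of blood cells had nearly the make-up of the osteochondral cells. Fibrillar collagens formed 51.6% and 48.0% of collagen UMIs in blood cells and 53.5% and 52.7% in osteochondral cells, and short-chain collagens 17.5% and 16.6% and 18.5% and 17.0%. Col2a1 stood at 43.5 and 72.0 CPM in Ctrl blood cells and 1.59 and 0.531 CPM in HLU, and Col10a1 at 35.7 and 52.9 CPM and at 0.331 and 0.177 CPM. EdgeR called 3 of the 25 collagens tested, all lower in HLU, beside 0.207% of all 13029 genes. Col10a1 fell by 7.51 on the log2 scale (adjusted p = 0.0237), Col6a2 fell by 4.95 (adjusted p = 0.0405) and Col6a3 fell by 4.89 (adjusted p = 0.0430). DESeq2 called 15, all lower, beside 2.26% of all genes called lower, and edgeR called 0 without Ctrl replicate 1, 0 without Ctrl replicate 2 (0% of all genes in both), 21 without HLU replicate 1 (41.5%) and 15 without HLU replicate 2 (6.995%).

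Some collagens stood apart within this background. Col11a2 was 1 of the 15 DESeq2 calls (log2 fold change -1.68, adjusted p = 0.0496), at 10.7 and 20.8 CPM in Ctrl blood cells and 6.66 and 3.30 CPM in HLU, and 31.6% of its Ctrl level was left. With 201 and 280 UMIs it outnumbered Col2a1 (48 and 45 UMIs) in HLU blood cells, although Col2a1 outnumbered it in osteochondral cells of every library. Rxrb, the gene just upstream on the same strand, stood at 34.03 and 16.05 CPM in HLU neutrophils, where Col11a2 was at 7.43 and 3.80 CPM. Whether reads of a neighbouring gene take part was not tested.

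Col1a1 in blood cells was 10.3 and 13.03 CPM in Ctrl and 11.6 and 1.56 CPM in HLU. Its ratio to Col1a2 was 0.901 and 1.12 in Ctrl blood cells and 4.36 and 2.75 in HLU blood cells, while HLU osteochondral cells had 1.30 and 0.672. Of the 349 Col1a1 UMIs of HLU replicate 1, 318 were in neutrophils. Col4a2 stood at 1.51 and 1.40 CPM in Ctrl blood cells and 0.762 and 3.11 CPM in HLU, and in HLU replicate 2 it reached 31.7 CPM in 117 dendritic cells. Col27a1 stood at 9.45 and 13.1 CPM in Ctrl dendritic cells and 14.5 and 14.9 CPM in HLU dendritic cells, though each value rested on 3 to 15 UMIs.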

How the data were processed

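Single-cell RNA libraries of 2 Ctrl and 2 HLU samples were grouped by their labels. The deposited values are raw UMI counts, which the authors made with Cell Ranger 6.0.0 against mm10, and the authors then used Seurat 4.1.0. Each library was deposited with 10000 to 10003 barcodes, and barcodes with 1000 to 40000 UMIs and at most 10% mitochondrial UMIs were kept here. The members and gene lists were chosen with earlier results of these data known.

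Cells were clustered with leidenalg 0.10.2 on 2000 variable genes without collagens, without integration, and named from markers when at least 3 were raised. A raised marker had a log2 fold of at least 1 over all other cells and was found in at least 10% of the cluster. The raised markers also needed a mean log2 fold of at least 1.5, and the list with the highest sum gave the name. Doublets were not removed in the main analysis. The rule for named genes took collagens with at least 50 CPM in Ctrl osteochondral cells, the 5 highest of each type, those called, those higher in HLU osteochondral cells with at least 10 UMIs in every library, and called genes of the 2 lists. Others, named for low counts or for their blood level, were chosen after their values were seen. For each library the counts of a type's cells were added up, and a type was tested when every library held at least 10 of its cells, with edgeR 4.0.16 (quasi-likelihood, TMM scaling, filterByExpr, Benjamini-Hochberg threshold 0.05) over all genes. DESeq2 1.42.0 was an alternative. Collagen shares were compared by exact permutation. The scripts were tested on simulated data. Exon sequences came from GRCm38. With 56279602 and 58763775 Ctrl UMIs and 45347595 and 87604282 HLU UMIs, depth was limited mainly by the HLU osteochondral cells, with 965931 and 1628034 UMIs.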

Additional observations from a re-analysis of the deposited data

How the results depend on the processing

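The 0 edgeR calls in osteochondral cells became 4 with DESeq2, 13 with no filter on low counts, 1 with Seurat anchor integration (Col10a1) and 0 to 11 when 1 library was left out. Over the Epyc cells and the Sfrp4 and Tnfsf11 cluster, 0 became 3 with DESeq2, 9 with no filter and 2 to 14 when 1 library was left out. In blood cells 3 became 15 with DESeq2, 15 with no filter, 1 once doublets and cells with haemoglobin were removed, and 0 to 21 when 1 library was left out. In whole libraries 31 became 32 with DESeq2, 32 with no filter and 18 to 34 when 1 library was left out. Processing and receptor genes went from 0 to 11 with DESeq2, 14 with no filter, 1 with integration and 0 to 18 when 1 library was left out. A fit without 1 library takes its spread from the other group alone, so these counts rest on the assumption that the lone library varies alike. The share of all genes called with no filter, with integration or with doublets removed is not given, so those counts cannot be set against it. The cause was not tested.

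The difference in osteochondral collagen share (HLU minus Ctrl) was 0.00671 percentage points after the blood background was subtracted, -0.209 with integration, -0.0742 with doublets and haemoglobin cells removed, -0.0968 with the unnamed Cemip cluster added (chosen after seeing the data), and -0.417 to 0.383 when 1 library was left out. In blood cells it was -0.0293 to -0.0180. The log2 fold change of Col1a1 was -0.14 to 2.01 in osteochondral cells and -0.60 to 1.07 in the Sfrp4 and Tnfsf11 cluster when 1 library was left out, negative without HLU replicate 1. The collagen share of that cluster differed by 0.199 percentage points, by -0.230 with integration and by -0.0522 with doublets and haemoglobin cells removed. With collagens among the variable genes it differed by 0.571, in a set of 104 and 112 Ctrl cells and 10 and 6 HLU cells. When 1 library was left out the share of the cluster differed by -0.108 to 0.507. Without its osteoblast-like cells, a choice made after seeing the data, its share averaged 0.307% for Ctrl and 0.245% for HLU, a difference of -0.0626. In Epyc cells the difference of -0.143 became -0.497 with doublets and haemoglobin cells removed (18 and 24 HLU cells). It became -0.429 with collagens among the variable genes (19 and 28 HLU cells), and -0.416 to 0.129 when 1 library was left out. Named genes were followed under alternatives in 21 pairings of a gene with a group of cells, so that some genes recur. Of 237 values, a few of them collagen shares, 180 were the same, for genes in direction and side of the threshold. Another 45 passed the threshold only under the alternative and 9 only in the main analysis. Direction changed in 2, and 1 collagen share moved.

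The replicate numbers were shared by the groups but not tied to animals or days. Same-numbered samples deviated together with a correlation of 0.136 in blood cells, -0.083 in osteochondral cells and -0.051 in all cells, so the pairing is by number alone. With the replicate block edgeR called 0 collagens in osteochondral cells and 1 in the types (Col10a1 in Epyc cells). It called 8 in blood cells, 32 in whole libraries and 0 processing or receptor genes. The share of all genes called with the block is not given, so these counts cannot be set against it. The Sfrp4 and Tnfsf11 cluster could not be tested under integration, the doublet filter or with collagens among the variable genes, since a library held under 10 of its cells. HLU osteochondral counts of 0 allow up to 3.11 and 1.84 CPM.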

Other observations

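Cells that no marker list named (1937 and 2735 in Ctrl, 2931 and 78 in HLU) also carried collagen UMIs, 0.172% and 0.223% of their UMIs in Ctrl and 0.0235% and 0.232% in HLU. Col2a1 stood at 429 and 556 CPM in the Ctrl libraries and 83.3 and 516 CPM in the HLU libraries, and Col10a1 at 284 and 463 CPM and at 11.1 and 93.5 CPM. These values set unlike cells side by side, since 39 of the 78 cells of HLU replicate 2 came from the unnamed cluster led by Cemip, against 163, 137 and 15 cells in the other libraries. In that cluster collagens took 0.633% and 0.760% of UMIs in Ctrl and 0.981% and 0.296% in HLU, with Col2a1 at 1573 and 1531 CPM and at 4581 and 647 CPM. In the main analysis these cells entered the whole-library comparison and no other. The Cemip cluster was added to the osteochondral cells in an alternative for the collagen share.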
